A study of Mus musculus with 9 samples.

Results

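The EYA-SIX-DACH genes encode a set of nuclear regulators that were first worked out in eye development. SIX-family proteins are homeodomain transcription factors, EYA proteins are coactivators that do not bind DNA themselves and carry a phosphatase domain, and DACH proteins are nuclear factors that mostly act with corepressors. The network is best known from muscle, kidney and inner ear, where PAX factors act beside it, and several of its genes have been studied in breast carcinoma cells.

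The 8 genes described here were selected by name as members of this network with an entry in the count table, namely Eya1, Eya2, Eya3, Eya4, Six2, Six4, Six5 and Dach1. They are 8 of the 55450 genes of the table. The list was drawn up when earlier results of these data were known, so the fold changes and adjusted p-values below describe these libraries and are not independent tests of the genes chosen. Of the 8 genes, 7 had enough counts to enter the fit across 19357 genes, and Six2 did not.

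The study asked what the loss of the Hippo pathway kinases LATS1 and LATS2 does to mature luminal mammary cells, and whether the transcription factor Sox9 is needed for it. RNA was sequenced from EYFP+ live cells that were sorted from mammary glands of adult nulliparous mice, and the table holds 3 libraries for each of 3 genotypes. Control mice were lsl-EYFP;K8CreERT2, the LATS1/2-KO group added LATS1/2f/f, and the LATS1/2-Sox9-KO group added LATS1/2f/f and Sox9f/f. All groups carried the Cre, which is driven by the keratin 8 promoter and so acts in luminal cells, together with the EYFP reporter that a stop cassette keeps silent until Cre removes it, and all received 2 mg of tamoxifen intraperitoneally 5 times on consecutive days, with the sort 7 days after the last dose. Assigned counts per library lay between 44167762 and 47003587 in control, between 50508666 and 61745346 in LATS1/2-KO and between 55503365 and 61967651 in LATS1/2-Sox9-KO. Nothing in the labels says that the libraries of a group came from separate mice, so p-values measure the spread between these libraries, which may in part be technical. In sorted bulk RNA, fewer cells that express a gene and less of its RNA per cell cannot be told apart.

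The targeted genes were examined first. Lats1 was measured at 5672, 5929 and 5940 normalized counts in control replicates 1 to 3, at 2090, 1923 and 2336 in the libraries labelled LATS1/2-KO, and at 2058, 1844 and 1709 in those labelled LATS1/2-Sox9-KO, where a normalized count is the count scaled by TMM (trimmed mean of M-values) to the mean library size. It was called lower in both deletion groups. Lats2 was not lower: its libraries held 1039, 865 and 1220 in control, 1256, 1434 and 1723 in LATS1/2-KO, and 1957, 1580 and 1240 in LATS1/2-Sox9-KO. Counts over all exons of a gene do not single out a floxed exon, and the groups are therefore named below as the libraries are labelled. Sox9 averaged 21598 normalized counts in control, 9715 in the libraries labelled LATS1/2-KO and 7343 in those labelled LATS1/2-Sox9-KO, and the last 2 groups overlapped. The difference between these 2 groups was -0.40 ± 0.19 on the log2 scale (SE, n = 3 each, adjusted p = 0.25, quasi-likelihood test), so the loss of Sox9 is not visible in its summed counts.

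All 6 luminal markers were counted in every library. In CPM (counts scaled to a common library size) per kilobase of exon, the 6 luminal markers (Krt8, Krt18, Krt19, Epcam, Cdh1, Cldn4) summed to 9197 to 10490 in control, 10650 to 10850 in LATS1/2-KO and 15560 to 18610 in LATS1/2-Sox9-KO, with Krt18 the most abundant in every library. Single markers went both ways: Krt19 was called lower in LATS1/2-KO (2.04-fold, adjusted p = 0.00418, but 1.77-fold to 1.93-fold and not called without control replicate 3 or LATS1/2-KO replicate 2 or 3), Epcam was called lower in LATS1/2-Sox9-KO (2.46-fold, adjusted p = 6.18e-06), and Krt8 and Krt18 were called higher in LATS1/2-Sox9-KO. The 6 basal markers summed to 22.2 to 26.5 in control, 1575 to 2751 in LATS1/2-KO and 1275 to 3747 in LATS1/2-Sox9-KO. Krt14 was the most abundant basal marker in every deletion library, while Trp63, a basal transcription factor, was called lower in both deletion groups. Adipocyte markers (Adipoq, Plin1, Cidec, Lep) set replicate 1 of both deletion groups apart from replicates 2 and 3, summing to 0.0548, 8.60 and 4.61 in LATS1/2-KO and to 0.187, 2.33 and 1.53 in LATS1/2-Sox9-KO, against 0.0139, 0.0567 and 0.0701 in control. Lep did not share this order in LATS1/2-Sox9-KO, where it was highest in replicate 1. Over all tested genes, each library labelled LATS1/2-KO correlated with some library labelled LATS1/2-Sox9-KO (highest r 0.963 to 0.970) at least as closely as with the least similar library of its own group (lowest r 0.957 to 0.960).

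Promoter windows are shown for the called members that matched one, Eya4 (higher in both deletion groups) and Six5 and Dach1 (lower in both), and for Six4, of which 1 window holds the letters of a SIX-factor site. Each window is RefSeq sequence of GRCm38.p6, 5′ to 3′ on the strand of the gene, from 250 bases before to 50 bases after an annotated start. Capitals mark letters of the TEAD motif (GGAATG, reverse complement CATTCC), the motif of the DNA-binding partners of YAP and TAZ, which LATS kinases inhibit, or of a SIX-factor site of the MEF3 type (TCAGGTTTC, reverse complement GAAACCTGA). Of the 8 genes, 6 matched a window, 8 windows in all; Eya1 and Eya2 did not.
Eya4, chr10:23349841-23350140, minus strand: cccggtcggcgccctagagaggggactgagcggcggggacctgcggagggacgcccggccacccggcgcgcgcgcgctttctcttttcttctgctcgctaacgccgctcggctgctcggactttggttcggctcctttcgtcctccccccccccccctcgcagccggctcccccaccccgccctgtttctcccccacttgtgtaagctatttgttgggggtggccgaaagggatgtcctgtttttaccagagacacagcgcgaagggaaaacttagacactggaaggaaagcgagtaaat
Six5, chr7:19094294-19094593, plus strand: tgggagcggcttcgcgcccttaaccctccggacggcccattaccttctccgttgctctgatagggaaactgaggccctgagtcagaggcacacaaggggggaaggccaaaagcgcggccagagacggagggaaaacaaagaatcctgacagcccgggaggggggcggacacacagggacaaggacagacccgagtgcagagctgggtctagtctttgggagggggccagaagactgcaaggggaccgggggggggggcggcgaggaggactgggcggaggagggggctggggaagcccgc
Dach1, chr14:98169716-98170015, minus strand: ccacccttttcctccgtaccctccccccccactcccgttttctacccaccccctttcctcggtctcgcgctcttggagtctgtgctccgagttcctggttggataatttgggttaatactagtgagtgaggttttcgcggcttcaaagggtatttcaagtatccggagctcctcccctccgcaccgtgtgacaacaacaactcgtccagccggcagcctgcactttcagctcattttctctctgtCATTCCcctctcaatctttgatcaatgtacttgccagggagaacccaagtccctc
Six4, chr12:73113196-73113495, minus strand: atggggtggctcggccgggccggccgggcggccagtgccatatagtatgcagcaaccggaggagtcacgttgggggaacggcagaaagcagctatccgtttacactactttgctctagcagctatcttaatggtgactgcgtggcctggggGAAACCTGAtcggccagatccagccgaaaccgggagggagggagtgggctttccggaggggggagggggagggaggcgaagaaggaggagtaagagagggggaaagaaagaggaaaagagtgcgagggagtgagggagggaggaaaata
The Dach1 window holds CATTCC with its first base 5 bases before the start, and 14.7% of all 32851 windows hold the TEAD letters on one strand or the other. Neither Eya4 window holds them, nor does that of Six5. The Six4 window shown holds GAAACCTGA with its first base 99 bases before the start, the other Six4 window does not hold these letters on either strand, and 0.429% of all windows hold the MEF3 letters. The letters of a SOX motif (ACAATG, reverse complement CATTGT), present in 12.6% of windows, are in none of the 8. The members' windows were richer in G and C than the median window (52.7%), at 64.0% for the Eya4 window shown, 66.0% for Six5, 60.0% for the Six4 window shown and 54.0% for Dach1. A match of letters is a description of the sequence and not a measured site.

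Among the coactivators, Eya1 and Eya4 went from at most 5.67 normalized counts in control to at least 147 in both deletion groups, Eya2 fell and Eya3 stayed within 2-fold. Eya1, best known from branchial arch, ear and kidney development, lies at chr1:14168954-14310235 (GRCm38). It was measured at 1.16, 5.67 and 0 normalized counts in control, at 189, 505 and 552 in the libraries labelled LATS1/2-KO, and at 147, 392 and 326 in those labelled LATS1/2-Sox9-KO. Every deletion library lay far above every control library, replicate 1 was the lowest of each deletion group, and the deletion groups overlapped. The 6 control reads set the precision: from the summed counts scaled to library size, Eya1 was 180-fold higher in LATS1/2-KO than in control (95% exact interval 82.6 to 492, counting error only) and 121-fold higher in LATS1/2-Sox9-KO (55.6 to 332). The fitted log2 fold changes were 7.40 ± 0.81 (SE, n = 3 each, adjusted p = 4.63e-05) and 6.87 ± 0.80 (adjusted p = 5.71e-05). Without control replicate 2, which holds 5 of the 6 control reads, they were 9.17 and 8.64.

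Eya4, a paralog known from inherited deafness and cardiomyopathy, lies at chr10:23102963-23350786. Its libraries held 0, 1.13 and 0 normalized counts in control, 345, 1162 and 668 in LATS1/2-KO, and 632, 793 and 612 in LATS1/2-Sox9-KO. The control libraries held a single Eya4 read between them, and the LATS1/2-KO libraries spread more widely than those labelled LATS1/2-Sox9-KO. Against that 1 read, the ratio of scaled counts was 1904 in LATS1/2-KO (95% exact interval 341 to 75240) and 1722 in LATS1/2-Sox9-KO (309 to 68060). The fitted log2 fold changes, which depend on the prior count when a group is this near 0, were 10.45 ± 0.75 (SE, n = 3 each, adjusted p = 4.86e-06) and 10.36 ± 0.75 (adjusted p = 3.33e-06). They were 12.52 and 12.43 without control replicate 2, the library with that read. Control then held no Eya4 read, so the counts gave only lower bounds. With control set to 3 counts over the group these were at least 415-fold in LATS1/2-KO and at least 375-fold in LATS1/2-Sox9-KO.

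Eya2, a cofactor of SIX-family proteins that has been studied in breast carcinoma cells, lies at chr2:165595032-165771727 and was the most counted of the 8 genes in control. It was measured at 5724, 5997 and 4885 normalized counts in control, at 942, 476 and 782 in LATS1/2-KO, and at 371, 291 and 386 in LATS1/2-Sox9-KO. The 3 groups did not overlap in any pair. Eya2 fell 7.55-fold in LATS1/2-KO (log2 fold change -2.92 ± 0.24, SE, n = 3 each, adjusted p = 9.19e-06) and 15.8-fold in LATS1/2-Sox9-KO (-3.98 ± 0.25, adjusted p = 1.79e-06). It was also the only one of the 7 tested genes called between the deletion groups, lower in LATS1/2-Sox9-KO by a log2 difference of -1.07 ± 0.23 (95% interval -1.58 to -0.55, adjusted p = 0.0269). That call sits at the edge of both thresholds: it was lost when only the 2 deletion groups were fitted (adjusted p = 0.0618), and when LATS1/2-KO replicate 1 (log2 difference -0.84, adjusted p = 0.0414), LATS1/2-KO replicate 3 (adjusted p = 0.0852) or LATS1/2-Sox9-KO replicate 1 (0.0682), 2 (0.113) or 3 (0.0593) was left out.

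Eya3, the widely expressed member of the family, lies at chr4:132638987-132724765. Normalized counts were 2764, 3242 and 3486 in control, 2965, 2099 and 2090 in LATS1/2-KO, and 2895, 2729 and 2884 in LATS1/2-Sox9-KO. All pairs of groups overlapped. The log2 fold change was -0.41 ± 0.15 in LATS1/2-KO (SE, n = 3 each, adjusted p = 0.0444) and -0.16 in LATS1/2-Sox9-KO (adjusted p = 0.403), both short of the 2-fold change a call needed. The first of these adjusted p-values ran from 0.00293 without LATS1/2-KO replicate 1 to 0.632 with replicate 1 as the single library of each deletion group.

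**Figure D1:**
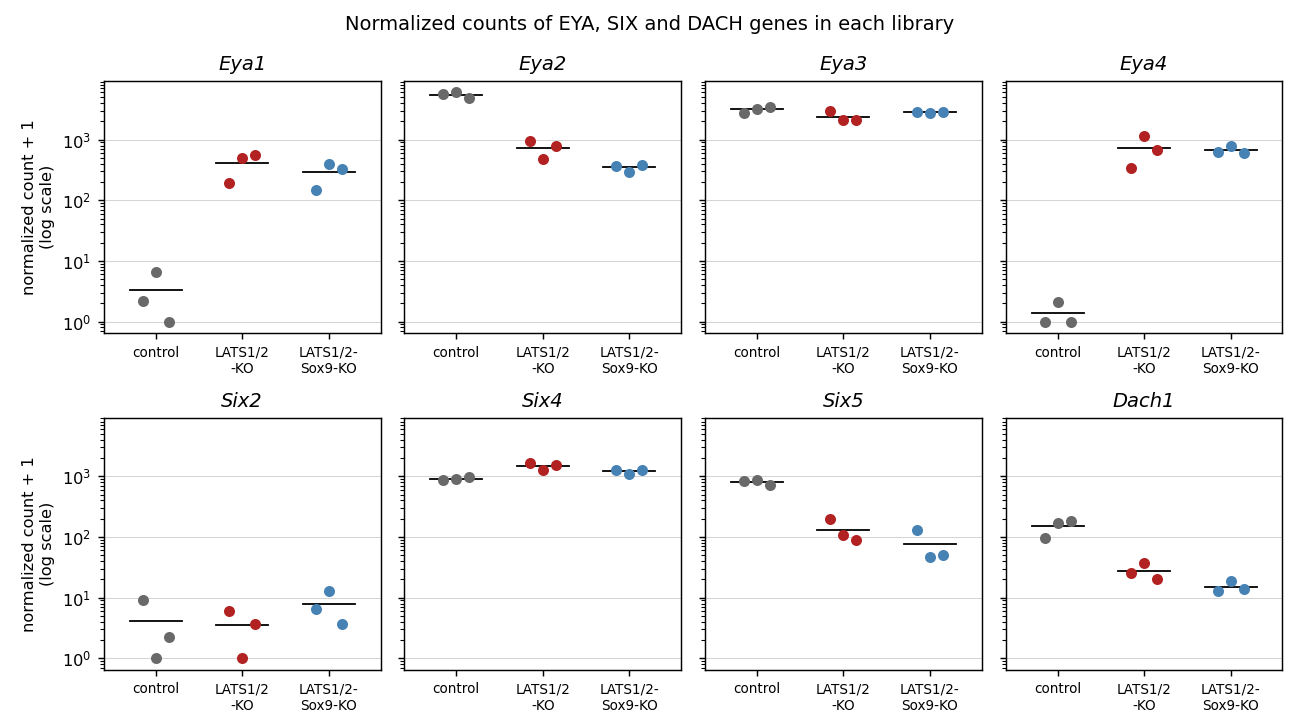
Normalized count plus 1 on a log axis for each of the 8 genes, with 1 point per library and a line at the mean of the 3 libraries of each labelled group. Eya1 and Eya4 sit at 0 to 5.67 normalized counts in control and at 147 or more in every deletion library, while Eya2, Six5 and Dach1 sit lower in every deletion library than in any control library.

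The make-up of the EYA transcripts differed between control and the deletion groups. On the scale of CPM per kilobase of exon, Eya2 made up 76.8% ± 3.63 of the summed level of the 4 genes in control (SD, n = 3), 30.5% ± 7.12 in LATS1/2-KO and 16.2% ± 2.11 in LATS1/2-Sox9-KO. Eya3 made up 23.2% ± 3.64, 52.5% ± 5.25 and 68.9% ± 1.73 of it in the same order. The share of Eya3 was higher where that of Eya2 was lower, although the Eya3 counts themselves overlapped between groups. Eya4 reached 10.1% ± 6.59 and 9.91% ± 1.63, and Eya1 6.92% ± 3.68 and 5.06% ± 2.25, in the 2 deletion groups. The summed level of the 4 genes was 45.1 ± 3.09 in control, 14.9 ± 1.75 in LATS1/2-KO and 13.5 ± 0.31 in LATS1/2-Sox9-KO, and the lowest control library (42.1) lay above the highest deletion library (16.8). These shares rest on annotated exon lengths and were not tested.

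Among the 3 SIX-family genes listed, Six5 fell, Six4 was up to 1.63-fold higher, and Six2 was near 0 throughout. Six4, a homeodomain factor known from muscle development, lies at chr12:73099609-73113456. It was measured at 884, 894 and 965 normalized counts in control, at 1662, 1270 and 1525 in LATS1/2-KO, and at 1286, 1090 and 1264 in LATS1/2-Sox9-KO. Every deletion library was above every control library, and the deletion groups overlapped. The log2 fold change was 0.70 ± 0.14 in LATS1/2-KO (SE, n = 3 each, 95% interval 0.39 to 1.01, adjusted p = 0.00176) and 0.41 ± 0.14 in LATS1/2-Sox9-KO (adjusted p = 0.0274), and neither reached the 2-fold change of a call. The adjusted p in LATS1/2-Sox9-KO lay between 0.0146 and 0.0813 over the 18 alternatives.

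Six5, whose gene lies beside the myotonic dystrophy kinase gene Dmpk, is at chr7:19094594-19098549. Its normalized counts were 837, 866 and 731 in control, 198, 108 and 88.5 in LATS1/2-KO, and 128, 45.8 and 49.2 in LATS1/2-Sox9-KO. No deletion library reached the control range, and replicate 1 was the highest library of each deletion group. Six5 fell 6.19-fold in LATS1/2-KO (log2 fold change -2.63 ± 0.43, SE, n = 3 each, adjusted p = 0.000567) and 10.9-fold in LATS1/2-Sox9-KO (-3.44 ± 0.45, adjusted p = 0.000115). The second value was -4.07 without LATS1/2-Sox9-KO replicate 1 and -2.64 with replicate 1 as the single library of each deletion group.

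Six2, which maintains nephron progenitors in the kidney, lies at chr17:85684277-85688274. It was counted 7, 0 and 1 times in control, 5, 0 and 3 times in LATS1/2-KO, and 6, 12 and 3 times in LATS1/2-Sox9-KO. These counts overlapped between all groups and were too few for the test. In CPM per kilobase of exon, Six5 made up 75.8% ± 2.43 of the summed level of Six2, Six4 and Six5 in control (SD, n = 3), 23.4% ± 6.26 in LATS1/2-KO and 16.9% ± 7.88 in LATS1/2-Sox9-KO. Six4 held most of the rest, with 23.8% ± 2.56, 76.0% ± 6.44 and 80.7% ± 7.46. The leading gene of these 3 was therefore Six5 in every control library and Six4 in every deletion library.

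**Figure D2:**
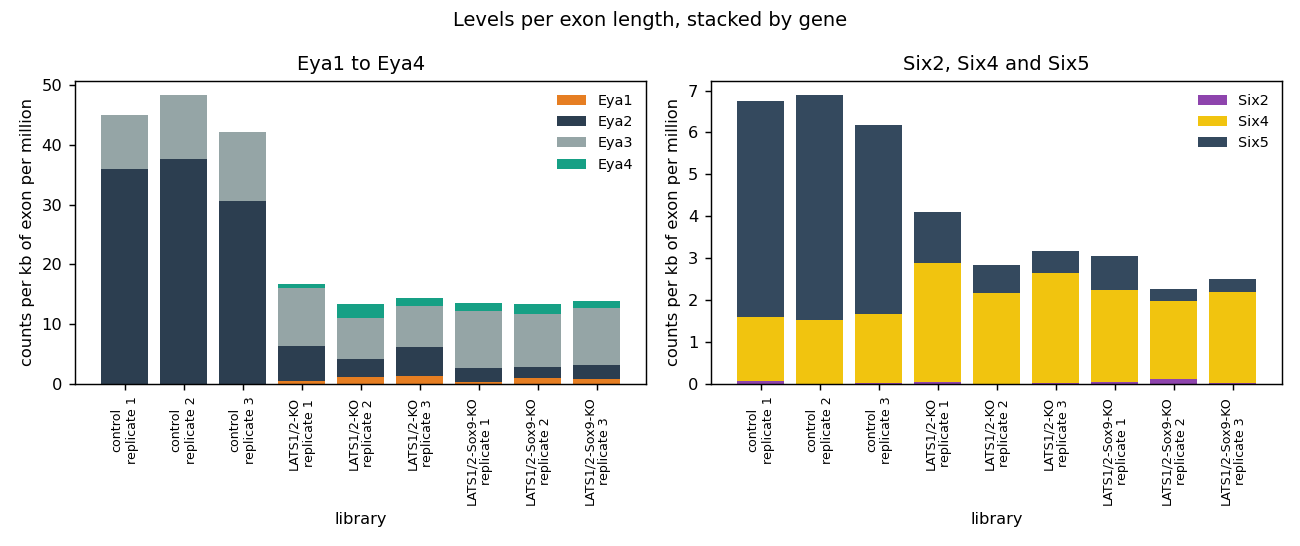
Stacked levels in counts per kilobase of exon and per-million library counts (CPM per kilobase) in each of the 9 libraries, for Eya1 to Eya4 on the left and for Six2, Six4 and Six5 on the right. The summed EYA level is 42.1 to 48.3 in control, mostly Eya2, and 13.3 to 16.8 in the deletion libraries, where Eya3 makes up 47.7% or more, and the larger part of the SIX-family level is Six5 in control and Six4 in the deletion libraries.

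Dach1, a nuclear corepressor that is known to restrain the cyclin D1 gene in breast cells, lies at chr14:97786853-98169765. It was measured at 95.1, 172 and 184 normalized counts in control, at 24.1, 36.4 and 19.2 in LATS1/2-KO, and at 12.1, 17.9 and 12.8 in LATS1/2-Sox9-KO. The 3 groups did not overlap in any pair. Dach1 fell 5.64-fold in LATS1/2-KO (log2 fold change -2.49 ± 0.40, SE, n = 3 each, adjusted p = 0.000504) and 10.5-fold in LATS1/2-Sox9-KO (-3.39 ± 0.42, adjusted p = 8.61e-05). Its paralog Dach2 was counted 31, 44 and 25 times in control, 6, 55 and 14 times in LATS1/2-KO and 7, 33 and 19 times in LATS1/2-Sox9-KO, and was not called. Further SIX-family genes were sparse: Six3 had no count in any library, which allows up to 3 counts over each group, and Six6 had 2 counts, both in LATS1/2-Sox9-KO replicate 1.

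Counted together, 2 of the 7 tested genes were called higher in LATS1/2-KO than in control (Eya1, Eya4), against 17.1% of all tested genes, and 3 were called lower (Eya2, Six5, Dach1), against 17.5%. In LATS1/2-Sox9-KO the same 2 genes were called higher, against 17.8% of all tested genes, and the same 3 lower, against 19.6%. Between the deletion groups none was called higher, against 1.55% of all tested genes, and 1 was called lower (Eya2), against 2.16%. The median log2 fold change of the 7 genes was -0.41, -0.16 and -0.53 in the 3 comparisons, beside medians of 0.04, 0.01 and -0.02 over all tested genes. Both comparisons with control use the same 3 control libraries, so their similarity is in part built in. Nothing is read from these counts about the network as a whole. With replicate 1 as the single library of each deletion group, and the spread therefore taken from the control libraries alone, the log2 fold changes against control were 6.23 and 5.91 for Eya1 (adjusted p = 0.00622 and 0.00623) and 9.33 and 10.25 for Eya4 (adjusted p = 0.00134 and 0.000661).

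**Figure D3:**
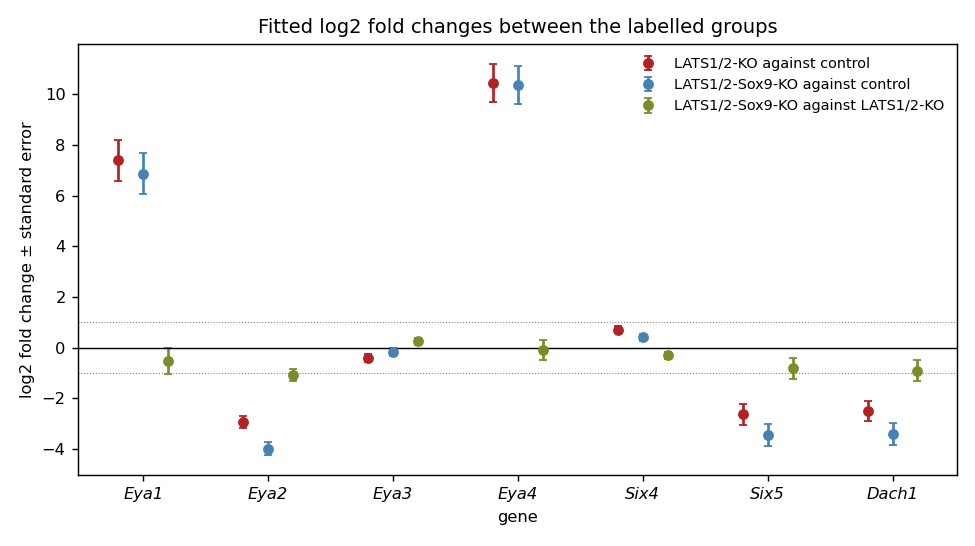
Fitted log2 fold change with its standard error for the 7 tested genes in the 3 comparisons between labelled groups (3 libraries each); dotted lines mark a 2-fold change. Against control, Eya1 and Eya4 lie at 6.87 or above and Eya2, Six5 and Dach1 at -2.49 or below, while between the deletion groups only Eya2, at -1.07, was called.

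Between the deletion groups, the differences for the genes that were not called remained wide for the sparser genes. For Eya1 the log2 difference (LATS1/2-Sox9-KO minus LATS1/2-KO) was -0.53, with a 95% interval of -1.70 to 0.65 and an adjusted p of 0.611. For Eya4 it was -0.09 (-0.95 to 0.76, adjusted p = 0.918), for Six5 -0.81 (-1.76 to 0.13, adjusted p = 0.292), and for Dach1 -0.90 (-1.81 to 0.02, adjusted p = 0.232), so that differences of 2-fold lay inside the interval for Eya1, Six5 and Dach1. The intervals of the better counted genes were narrower, at -0.60 to 0.02 for Six4 around -0.29 (adjusted p = 0.245). The Eya3 difference was 0.25 with an adjusted p of 0.374.

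Ordered by CPM per kilobase within control, Eya2 (34.7 ± 3.63, SD, n = 3) came first, followed by Eya3 (10.4 ± 1.21), Six5 (5.01 ± 0.44), Six4 (1.56 ± 0.075) and Dach1 (0.382 ± 0.123). Neighbours down to Dach1 did not overlap, whereas Six2, Eya1 and Eya4 below it did. In LATS1/2-KO the order was Eya3 (7.84 ± 1.65), Eya2 (4.60 ± 1.48), Six4 (2.54 ± 0.34), Eya4 (1.43 ± 0.81), Eya1 (0.988 ± 0.470), Six5 (0.811 ± 0.360), Dach1 and Six2. There the libraries of Six4 and Eya4, of Eya4 and Eya1, and of Eya1 and Six5 overlapped. In LATS1/2-Sox9-KO it was Eya3 (9.33 ± 0.305), Eya2 (2.19 ± 0.321), Six4 (2.08 ± 0.184), Eya4 (1.34 ± 0.196), Eya1 (0.686 ± 0.302), Six5 (0.460 ± 0.288), Six2 and Dach1. Eya2 and Six4, Eya1 and Six5, and Six2 and Dach1 overlapped there. Eya4, the last in control, came directly after Six4 in both deletion groups.

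Several marker lists also differed between control and the deletion groups, and their part in the changes of the network genes was not tested. Of all tested genes, 17.1% were called higher and 17.5% lower in LATS1/2-KO, and 17.8% and 19.6% in LATS1/2-Sox9-KO. The calls within each marker list stand beside these shares. All 4 proliferation markers (Mki67, Top2a, Ccnb1, Cdk1) were called higher in both deletion groups, with summed levels of 2.45 to 6.86 CPM per kilobase in control, 67.2 to 69.4 in LATS1/2-KO and 62.6 to 79.6 in LATS1/2-Sox9-KO, and Top2a the most abundant. Of the 6 basal markers, 2 were called higher and 2 lower in LATS1/2-KO, and 3 higher and 3 lower in LATS1/2-Sox9-KO. Krt14 and Acta2 were called higher in both, Acta2 by 13.2-fold (adjusted p = 3.88e-06) and 5.23-fold (adjusted p = 2.33e-05). Krt5 was called higher in LATS1/2-Sox9-KO alone, at an adjusted p of 0.0298. That call was lost without any 1 control library or LATS1/2-Sox9-KO replicate 2 or 3 (adjusted p = 0.0527 to 0.115). The lower calls of Oxtr and Myh11 in LATS1/2-Sox9-KO were lost without its replicate 1, and that of Oxtr also without its replicate 3. Immune markers summed to 2.09 to 6.82 in control, 6.90 to 23.1 in LATS1/2-KO and 12.6 to 19.3 in LATS1/2-Sox9-KO, led by Lyz2 or the macrophage receptor gene Csf1r, with the T cell marker Cd3e at 0 in all libraries. Of the 6 immune markers, 4 were tested and none was called lower. Ptprc was not called in LATS1/2-KO (1.85-fold, adjusted p = 0.415) or LATS1/2-Sox9-KO (1.95-fold, adjusted p = 0.371). Lyz2 was not called either (1.83-fold, adjusted p = 0.374, and 1.28-fold, adjusted p = 0.718). Csf1r was called higher in both deletion groups (14.6-fold, adjusted p = 3.27e-06, and 20.4-fold, adjusted p = 1.35e-06), and the macrophage marker Adgre1 in LATS1/2-Sox9-KO (6.46-fold, adjusted p = 0.0348). The Adgre1 call was lost without control replicate 1 or 2 or LATS1/2-Sox9-KO replicate 1 or 3 (adjusted p = 0.054 to 0.106), while in LATS1/2-KO Adgre1 was not called (adjusted p = 0.115) except without control replicate 3 or LATS1/2-KO replicate 3. The 6 skeletal muscle markers summed to 0.0753 to 0.358 in control, 0.387 to 1.35 in LATS1/2-KO and 0.335 to 0.450 in LATS1/2-Sox9-KO. Acta1 was the only one with enough counts to test and was called higher in LATS1/2-KO (4.51-fold, adjusted p = 0.0191), a call that was lost without LATS1/2-KO replicate 2 (2.88-fold, adjusted p = 0.0964). Ckm, the muscle creatine kinase gene, went the other way, with 4, 23 and 2 counts in control, 2, 1 and 0 in LATS1/2-KO and 0 in each LATS1/2-Sox9-KO library, too few to test. Myod1 was counted once in all libraries. Fibroblast, endothelial and Schwann cell markers summed to 0.660 to 29.0 CPM per kilobase and overlapped between control and both deletion groups, although single markers were called. Of the 6 fibroblast markers, 4 were called higher and 1 (Dcn) lower in LATS1/2-KO, and 3 higher and 2 (Dcn and Pdgfra) lower in LATS1/2-Sox9-KO. For Dcn (adjusted p = 0.0429), Lum and Col1a1 the LATS1/2-KO call was lost when LATS1/2-KO replicate 1 was left out. This Dcn call was also lost without control replicate 2 or 3, LATS1/2-KO replicate 2 or 3, or LATS1/2-Sox9-KO replicate 2. The Lum call was also lost without control replicate 1 or 2 or LATS1/2-Sox9-KO replicate 2, and the Col1a1 call without control replicate 1. The endothelial marker Kdr was called higher in both deletion groups, and the endothelial marker Tek was called lower in LATS1/2-Sox9-KO. The Kdr call in LATS1/2-KO was lost without LATS1/2-KO replicate 3 (adjusted p = 0.0598). Of the 4 adipocyte markers, 3 (Adipoq, Cidec and Lep) were called higher in both deletion groups. Without control replicate 2, the Adipoq and Cidec calls were lost in both (adjusted p = 0.0511 and 0.0539 in LATS1/2-KO, 0.127 and 0.11 in LATS1/2-Sox9-KO), and in LATS1/2-Sox9-KO each was lost with any of 6 single libraries left out. In LATS1/2-KO replicate 1, Adipoq had 2 counts, Lep 5, and Cidec and Plin1 0, and in LATS1/2-Sox9-KO replicate 1, Adipoq had 1, Lep 34, and Cidec and Plin1 0. Lep had 9 and 20 counts in the other LATS1/2-Sox9-KO libraries and 0 in every control library.

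The PAX genes encode paired-domain factors that act beside EYA-SIX complexes in several organs. Of Pax1 to Pax9, only Pax8, a thyroid and kidney factor, had enough counts to test. It was counted 0 times in each control library, 19, 11 and 5 times in LATS1/2-KO, and 16, 31 and 38 times in LATS1/2-Sox9-KO. Pax8 was called higher in both deletion groups, by at least 9.08-fold and at least 22.7-fold when control is set to 3 counts over the group. With single libraries left out these bounds were 5.94-fold to 11.7-fold and 14.9-fold to 27.9-fold, the first being 5.97-fold without LATS1/2-KO replicate 1. Its level remained low, since it had fewer than 40 reads in any library. Pax9, a factor of pharyngeal and tooth development, was the only PAX gene counted in control, and it went the other way, with 6, 6 and 2 counts in control, 0, 1 and 0 in LATS1/2-KO and 0 in each LATS1/2-Sox9-KO library.

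Among 10 genes known as targets of EYA-SIX complexes, 7 were tested, of which 3 were called higher and 1 lower in LATS1/2-KO and 4 higher and 1 lower in LATS1/2-Sox9-KO, beside the shares of all tested genes given above. Their median log2 fold changes against control were 0.88 and 1.72, and none was called between the deletion groups. Gdnf, the ligand that acts downstream of EYA-SIX complexes in the early kidney, was counted 0, 3 and 0 times in control, 1417, 216 and 801 times in LATS1/2-KO, and 600, 383 and 643 times in LATS1/2-Sox9-KO. It was 631-fold higher in LATS1/2-KO (95% exact interval 216 to 3064, counting error only) and 434-fold higher in LATS1/2-Sox9-KO (148 to 2109). All 3 control reads lay in control replicate 2, without which the differences were at least 413-fold and at least 284-fold with control set to 3 counts over the group. With any other single library left out they were 379-fold to 899.6-fold and 287-fold to 485-fold, the lowest value in LATS1/2-KO being without its replicate 1, which held 1417 of the 2434 LATS1/2-KO reads. In that library Eya1 and Eya4 were lowest within their group. Vegfc, a lymphatic growth factor, was measured at 91.6, 121 and 110 normalized counts in control, at 880, 988 and 911 in LATS1/2-KO, and at 1205, 920 and 964 in LATS1/2-Sox9-KO. Vegfc rose 8.61-fold (log2 fold change 3.11 ± 0.18, SE, n = 3 each, adjusted p = 2.17e-06) and 9.57-fold (3.26 ± 0.18, adjusted p = 9.43e-07). The deletion groups overlapped for both genes.

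Mycn, a proto-oncogene, was counted 2, 4 and 1 times in control, 42, 30 and 40 times in LATS1/2-KO and 18, 6 and 9 times in LATS1/2-Sox9-KO, and was called higher in both. The call in LATS1/2-Sox9-KO (adjusted p = 0.0381) was lost with any of 6 single libraries left out (adjusted p = 0.0504 to 0.151). Ezr, which links the cell membrane to actin, was measured at 66747, 63962 and 75145 normalized counts in control, at 124720, 123210 and 130610 in LATS1/2-KO, and at 193000, 244160 and 239150 in LATS1/2-Sox9-KO. The 3 groups were apart, and Ezr was called higher in LATS1/2-Sox9-KO (3.29-fold, log2 fold change 1.72 ± 0.12, SE, n = 3 each, adjusted p = 2.88e-06), whereas its 1.84-fold difference in LATS1/2-KO (adjusted p = 0.000164) was short of the call. Slc12a2, the sodium, potassium and chloride cotransporter, moved the other way. It was measured at 258500, 246660 and 454870 normalized counts in control, at 35094, 16435 and 19876 in LATS1/2-KO, and at 19118, 14199 and 15249 in LATS1/2-Sox9-KO, a fall of 13.4-fold and 19.8-fold (adjusted p = 1.60e-05 and 6.30e-06). Myc and Ccnd1 were not called (Ccnd1 was called higher in LATS1/2-Sox9-KO, 2.01-fold, without LATS1/2-Sox9-KO replicate 1), Sall1 had no control read and 22 and 6 reads in the deletion groups, and Ccna1 and Myog were too sparse to test.

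Of the 11 partner and related genes of EYA and DACH, all were tested, 1 was called higher and 1 lower in each comparison with control, and none between the deletion groups. Of all tested genes, 17.1% were called higher and 17.5% lower in LATS1/2-KO, and 17.8% and 19.6% in LATS1/2-Sox9-KO. Their median log2 fold changes against control were -0.31 and -0.58. Esr2, the gene of estrogen receptor beta, on which the EYA2 phosphatase is known to act, was counted 0 times in each control library, 8, 20 and 13 times in LATS1/2-KO and 7, 25 and 21 times in LATS1/2-Sox9-KO. This was an increase of at least 10.6-fold and at least 14.2-fold with control set to 3 counts over the group (6.95-fold to 12.3-fold and 9.26-fold to 18.6-fold with single libraries left out). Gnaz, a G protein subunit known to bind EYA2, was measured at 791, 618 and 698 normalized counts in control, at 312, 132 and 310 in LATS1/2-KO, and at 167, 53.8 and 62.8 in LATS1/2-Sox9-KO. It fell 2.80-fold (log2 fold change -1.48 ± 0.45, SE, n = 3 each, adjusted p = 0.017) and 7.41-fold (-2.89 ± 0.47, adjusted p = 0.000502), the second being 11.8-fold without LATS1/2-Sox9-KO replicate 1, and the deletion groups overlapped. Without that library Gnaz was also called lower in LATS1/2-Sox9-KO than in LATS1/2-KO (4.21-fold, adjusted p = 0.0249). The other 9 genes were not called and went both ways, with Smad4, a TGF-beta signalling factor, 1.65-fold higher (adjusted p = 0.000269) and Gnai2, a G protein subunit, 1.59-fold lower (adjusted p = 0.00065) in LATS1/2-KO, both short of the 2-fold change. Ski, a DACH-related corepressor, was 1.997-fold lower in LATS1/2-Sox9-KO (adjusted p = 0.000919), just short of the call, and was called without control replicate 2 or 3 or LATS1/2-Sox9-KO replicate 1.

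**Figure D4:**
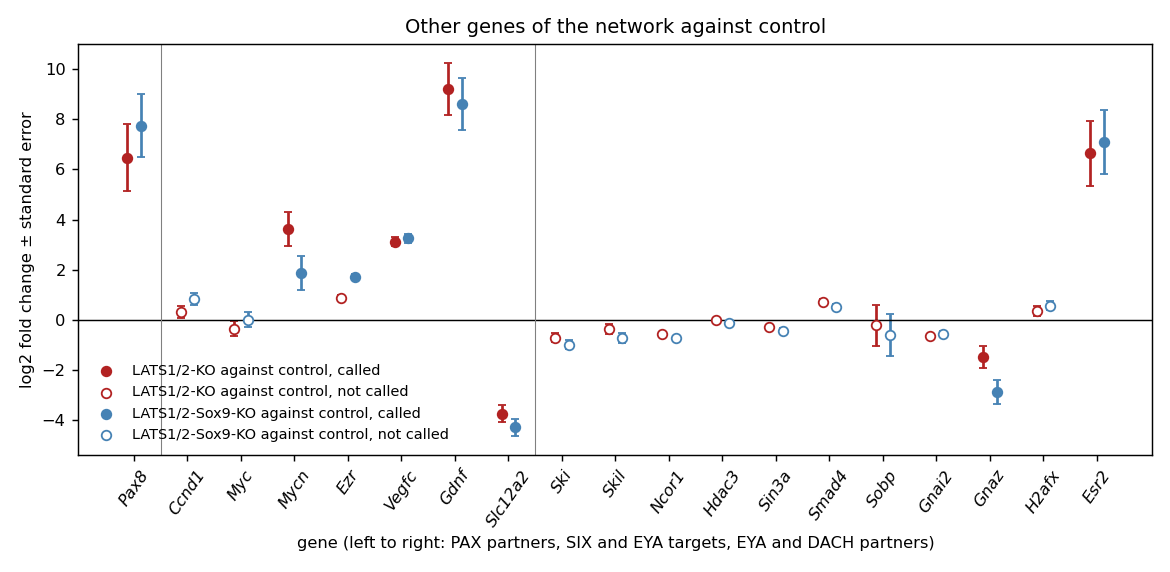
Fitted log2 fold change against control with its standard error for the tested PAX partners, EYA-SIX targets, and EYA and DACH partners, with filled points for calls and open points for genes not called (3 libraries per labelled group). Pax8, Mycn, Vegfc, Gdnf and Esr2 lie above and Slc12a2 and Gnaz below the thresholds in both deletion groups, and Ezr is filled only for LATS1/2-Sox9-KO.

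The genes most alike in pattern were taken as the 2 with the highest Pearson correlation of log2 CPM over the 9 libraries among 11814 candidates (11815 for Dach1). They were Rrm1 (r = 0.998) and Depdc1b (0.997) for Eya1, Rbm41 (0.999) and Sf3a3 (0.998) for Eya4, P3h4 and Nek4 (both 0.998) for Eya2, S1pr2 (0.990) and Fam71a (0.989) for Six5, and Eid1 (0.992) and Glb1l (0.991) for Dach1. For Eya3 they were Gatb and Enox2 (both 0.977), and for Six4 Nectin3 (0.982) and Bmp2k (0.974). All 9 points share the division of the libraries into control and deletion groups, and 2209 candidates for Eya1, 1945 for Eya2, 2582 for Eya4, 1573 for Six5 and 1150 for Dach1 had an r of at least 0.9, against 71 for Eya3 and 114 for Six4. The annotation places 7 other genes, of noncoding, pseudogene or unclassified types, within the spans of Eya1, Eya2, Eya4 or Dach1 (Gm22616, Gm37444, Gm11460, Gm28163, Gm24655, Gm16331 and Gm25831), and none shares exon bases with them.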

How the data were processed

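RNA from EYFP+ sorted cells was sequenced in 9 libraries, 3 per genotype. Per the paper's methods and the submitters' processing notes, the authors aligned reads to mm10 with STAR 2.6.0c and assigned properly paired, uniquely mapped reads to Ensembl genes by featureCounts (Subread 1.6.2), mitochondrial genes excepted. The deposited values are raw counts per gene, neither normalized nor pooled. The kit named in the labels does not mark strand, while the methods state same-strand counting, so reads of genes overlapping on opposite strands may not be told apart.

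Groups and replicate numbers came from the labels. Gene IDs were matched to symbols with GENCODE M21 (55190 of 55450), whose merged exon lengths gave CPM per kilobase. In R 4.3.3, edgeR 4.0.16 filtered genes (filterByExpr), computed TMM factors and ran the quasi-likelihood test on a fit with 1 mean per group over the 9 libraries. A call needed more than a 2-fold change (log2 above 1 in size) and an adjusted p (Benjamini-Hochberg, 19357 genes) of 0.05 or less. Exact 95% intervals of count ratios cover counting error only. Libraries of a group differed by more than sampling noise (chi-square per gene 16.4 to 129).

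The members, gene lists, markers and motifs were chosen with earlier results of these data known. The genes named are the members, the listed partners, targets and markers, genes overlapping a member, and for each tested member the 2 genes most correlated with it. Alternatives were DESeq2 1.42.0, RLE and upper-quartile factors, TMM without the 100 most counted genes, no filter, at least 10 counts in every library, the compared groups alone, a replicate block, glmTreat against a fold of 2, each library left out, and, chosen after seeing the data, replicate 1 as the only library of each deletion group. Promoter windows came from RefSeq (GRCm38.p6). One further gene of the network is not reported here.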

Additional observations from a re-analysis of the deposited data

Results flagged for a closer look

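The fall of Eya2 against control differed in size between the 2 deletion groups, which share their controls: the difference itself, LATS1/2-Sox9-KO minus LATS1/2-KO, was -1.07 on the log2 scale (edgeR quasi-likelihood test, adjusted p = 0.0269), with 942, 476 and 782 normalized counts under the label LATS1/2-KO against 371, 291 and 386 under LATS1/2-Sox9-KO. It was lower in 3 of 3 libraries, and the adjusted p lay between 0.000661 and 0.113 over 18 alternatives. Of all tested genes, 2.16% were called lower in this comparison.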

How the results depend on the processing

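Against control, the 5 calls among the network genes (2 higher, 3 lower) were made in both deletion groups by DESeq2, under every scaling, under glmTreat, with the replicate block, without any 1 library and with replicate 1 as the only library of each deletion group. With at least 10 counts required in every library there were 3 calls in each, because Eya1 and Eya4 were removed by that filter. Between the deletion groups, the 1 call (Eya2) became 0 with the 2 compared groups alone, with glmTreat and with replicate 1 only, and 0 to 1 with single libraries left out. The Eya4 difference between the deletion groups changed sign, from -0.09 to 0.063 with the replicate block, 0.92 with replicate 1 only and 0.45 without LATS1/2-KO replicate 2 (-0.43 to 0.45 with single libraries left out), and was called in none of these. Over all genes, glmTreat called 4005 in LATS1/2-KO (6705 in the main analysis) and 4708 in LATS1/2-Sox9-KO (7248). Between the deletion groups, 719 genes were called in the main analysis, 1259 by DESeq2, 32 by glmTreat, 76 with replicate 1 only and 201 to 1079 with single libraries left out. The causes of these differences were not tested. The 72 recomputed group means of the 8 genes and their order by length-scaled level moved by less than the replicate spread.

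With the replicate block the network calls were 5, 5 and 1 and the calls over all genes 6521, 7087 and 601. Same-numbered libraries correlated in their deviations from the group means at r = -0.07 to 0.17, over 0.1 in 2 of 9 pairs, so the numbers were not taken to pair the libraries.

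Depth limits the statements on Eya1 and Eya4, with 6 and 1 reads over the control group, and on Six2, Pax8 and Esr2, whose counts were low in all libraries. It also limits those on Gdnf and Mycn, with 3 and 7 reads over the control group. Dach1 had 88 reads over the LATS1/2-KO group and 45 over the LATS1/2-Sox9-KO group.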
